A study of Mus musculus with 4 samples.

Results

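Glucocorticoid receptor (GR) peaks that were listed after 12 h of corticosterone and overlapped no peak of the 1 h list by 1 bp or more were described. There were 447 of them, or 15.5% of the 2883 peaks of the 12 h list, and they are called 12 h only sites. The other 2436 peaks of that list overlapped a 1 h peak and are called shared sites, while 3202 of the 5638 peaks of the 1 h list (56.8%) had no 12 h partner and are called 1 h only sites. The sites were chosen by the presence or absence of a listed peak at each time, that is, by tags past the caller's minimums, so their strength in these lists is a description and was not tested.

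The lists came from GR chromatin immunoprecipitation followed by sequencing (ChIP-seq) in 33AP1C9 cells, a mouse line derived from C127 cells, which come from mammary epithelium. In every library the cells carried stably integrated copies of a mouse mammary tumour virus (MMTV) reporter with PP7 RNA stem-loops and made a GFP-tagged PP7 coat protein, and they had been kept for 48 h in medium with charcoal-stripped serum. Cells without hormone were compared with cells given corticosterone at 600 nM over 1 h and over 12 h, with 1 library per condition, so a difference between times has no replicate check and cannot be told apart from a difference between libraries. Per the labels the second antibody of the mixture also had a different catalogue number in each library, but the numbers rise by 2 from sample to sample, so whether the antibody differed is unclear. The libraries held 79203826 tags in untreated cells, 90556119 at 1 h and 97749688 at 12 h, and the untreated list held 1 peak. The files hold binding sites only, so the mammary identity of the cells was not checked against marker expression. The untreated ChIP library was the control of both treated lists, so each treated site stood at least 6-fold above it by construction.

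GR is a nuclear receptor that waits in the cytoplasm with HSP90 chaperones and enters the nucleus once corticosterone, the main glucocorticoid of mice, has bound it. As a dimer it binds imperfect palindromes of the hexamer AGAACA, most of them far from promoters in chromatin that other factors have already opened, and it also associates with factors such as AP-1. Binding is brief and repeated, and genes with nearby sites can be turned up or down.

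At 5 of the 12 h only sites, the 302 bp peak overlapped the 300 bp window around an annotated RefSeq gene start (250 bases before the start to 50 after it). No genome was used, so these windows are where sequence under the sites could be read. In 4 of them, inside or outside the peak, lay letters of a GR element, an AP-1 pattern or an E-box, the element of the circadian factors CLOCK, NPAS2 and BMAL1. The share of all windows with any of these was not computed, so the 4 of 5 has no background beside it. Both strands were searched for the full GR palindrome (the hexamer AGAACA, 3 free bases and the hexamer's reverse complement), its core ACANNNTGT and the hexamer alone. The AP-1 pattern TGANTCA, with any base at its centre, and the E-box CACGTG were also searched, and every match is in capitals. The 3 windows with a match and at least 171 bases inside the peak are shown, while the fourth, of Gm51550, had 29. Only the core in the Folh1 window and the E-box in the Gm36495 window lay whole inside a peak. Taken singly, the core, the hexamer, the AP-1 pattern and the E-box occur in 6.85% to 19.0% of all windows. The core and the hexamer overlap within the full palindrome, which was in none of the 5 windows. The window of Folh1, a peptidase gene, lies at chr7:86775815-86776114, those of the long noncoding RNA genes Gm36495 and 4930554I06Rik at chr12:16850886-16851185 and chr19:21104460-21104759 (mm10, RefSeq GRCm38.p6). The first and second are on the minus strand and the last is on the plus strand, each 5′ to 3′.
Folh1: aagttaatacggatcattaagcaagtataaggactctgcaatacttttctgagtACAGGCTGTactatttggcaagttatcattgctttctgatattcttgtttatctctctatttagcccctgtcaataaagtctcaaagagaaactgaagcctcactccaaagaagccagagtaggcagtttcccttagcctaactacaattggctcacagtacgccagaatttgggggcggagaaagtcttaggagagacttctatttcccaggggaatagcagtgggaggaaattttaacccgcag
Gm36495: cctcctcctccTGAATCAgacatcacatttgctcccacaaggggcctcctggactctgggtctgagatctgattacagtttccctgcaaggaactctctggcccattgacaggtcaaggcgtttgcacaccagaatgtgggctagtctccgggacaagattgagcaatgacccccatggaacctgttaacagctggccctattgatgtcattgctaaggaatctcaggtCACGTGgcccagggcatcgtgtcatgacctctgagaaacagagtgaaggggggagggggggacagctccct
4930554I06Rik: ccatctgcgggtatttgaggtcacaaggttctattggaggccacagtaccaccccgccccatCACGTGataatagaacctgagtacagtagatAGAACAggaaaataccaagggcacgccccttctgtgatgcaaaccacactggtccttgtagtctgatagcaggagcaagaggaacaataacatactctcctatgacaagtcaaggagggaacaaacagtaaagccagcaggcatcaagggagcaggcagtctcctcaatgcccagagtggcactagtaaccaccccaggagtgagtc

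Bases 1 to 222 of the Folh1 window lay inside the 12 h peak. Its single match, the GR core, had its centre 12 bp from the centre of the peak, and 6.85% of all 32817 such windows in the genome table hold that core. This peak held 14.6 normalised tags (tags per 10000000 tags of the library; exact Poisson 95% interval 12.3 to 17.2) at 12 h over 17 raw tags in the untreated library, and the nearest 1 h peak was 287 kb away. In the Gm36495 window, bases 16 to 300 lay in a peak of 14.1 normalised tags, with an E-box whose centre was 65.5 bp from the peak centre. A match to the AP-1 pattern, TGAATCA, was only partly inside the peak. E-boxes of these letters occur in 7.15% of all windows and matches to the AP-1 pattern, with any central base, in 7.81%. In the 4930554I06Rik window, bases 130 to 300 lay in a peak of 21.6 normalised tags, and its hexamer and its E-box both lay outside the peak. The hexamer occurs in 19.0% of all windows. The peaks over C330020E22Rik (8.39 normalised tags), whose window held none of these letters, and Gm51550 (13.2 normalised tags), whose match to the AP-1 pattern lay outside the peak, complete the 5. No annotated miRNA hairpin lay under any of the 447 sites.

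Most 12 h only sites were weak. Their median was 12.3 normalised tags (95% interval of the median 11.9 to 12.9), with quartiles of 10 and 16.2 and a range of 7.16 to 68.7. The median was 19.85 at shared sites and 14.7 at 1 h only sites in the 1 h library. The lists had unlike floors, since the lowest listed value was 6.96 normalised tags at 12 h and 7.51 at 1 h. In raw 12 h tags the 12 h only sites ran from 70 to 672 with a median of 120. The weakest, inside Celf2, a splicing regulator gene, and 211 kb from Bmp4, a growth factor gene, held 7.16 normalised tags each. Their intervals of 5.58 to 9.05 show how few tags a listing could rest on. Such intervals count tags as if each were its own molecule, which these reads cannot show, and hold no error between libraries.

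The share of 12 h peaks that were 12 h only was lower at higher peak scores, the caller's own strength value. In the highest scoring 10% of the 12 h list it was 0.692%, or 2 of 289 peaks, those near St6galnac1 and in Tns1. In the lowest 10% it was 35.1%, or 101 of 288 peaks. Each step of 10% down the list had a higher share than the one before, as the right panel of the plot of signal and score shows.

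**Figure D1:**
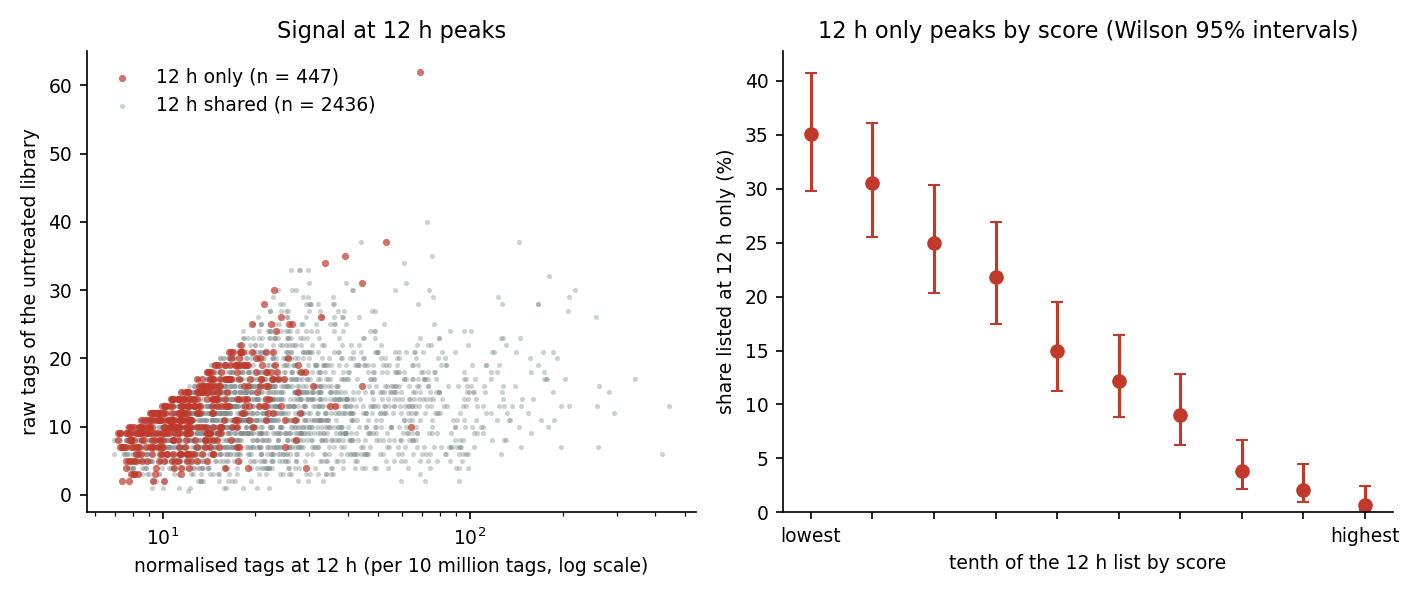
The left panel plots normalised tags at 12 h (horizontal, log scale) against raw tags of the untreated library (vertical) for each 12 h peak; the right panel plots the share of 12 h peaks that were 12 h only in each 10% of the list by score, with Wilson 95% intervals. Both sets end at an upper left edge, where the fold over the untreated library is 6; the 12 h only sites have a median of 12.3 normalised tags, and their share is 35.1% in the lowest and 0.692% in the highest 10%.

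The 12 h only sites also lay close to the caller's minimums for contrast. The fold over the untreated library had a median of 8.51 (8.18 to 8.82), against 13.72 at shared and 11.22 at 1 h only sites, where the minimum was 6. The fold over the surrounding 10 kb had a median of 7.65 (7.46 to 7.9), against 11.655 and 9.46, with the same minimum. A fold under 7 in one or both was found at 205 of the 12 h only sites (45.9%) and 356 of the shared sites (14.6%). Compared in the lower scoring part of the list alone (scores at or below the median of the 12 h list), the 369 12 h only sites had a median fold over untreated of 8.18, against 9.54 at 1076 shared sites, and 11.5 normalised tags, against 12.8. A fold of 12 or more over the untreated library was reached by 106 of the 12 h only sites (23.7%), against 52.4% of all 12 h peaks. Since the rule used these values, the difference describes the sites and nothing was tested.

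A small number stood clear of all 3 minimums. At 2 or more times each of them were 12 of the 12 h only sites (2.68%), against 33.6% of all 12 h peaks. Of these 12, 5 lay within 604 bp of a 1 h peak. The other 7 lay more than 5 kb from one and included sites 233 kb from Kcnj3, a potassium channel gene (27.6 normalised tags), 28.6 kb from Ccl2, a monocyte chemokine gene (24.2 normalised tags), and 597 kb from Gata3, a transcription factor gene of luminal mammary cells (21.7 normalised tags). The Ccl2 site held 13 raw untreated tags at a fold of 14.77, and its nearest 1 h peak was 187 kb away. Sites 12.6 kb from Prkch, a protein kinase C gene (20.5 normalised tags), 119 kb from Thsd7a (17.3 normalised tags) and 4.21 kb from Cdc42ep4, a Cdc42 effector gene (15.2 normalised tags), had the same standing.

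Untreated tags were close to the genome average. The untreated library held a median of 11 raw tags per 12 h only window (11 to 12; range 2 to 62), against 12 per shared window. The mean was 12.1 raw tags, where the average tags per base in the file headers gave 11.6, a ratio of 1.05. At shared sites the ratio was 1.07, and at 1 h only sites, with windows of 282 bp, it was 1.03. Windows with 20 or more untreated tags were 30 of the 447 (6.71%), against 10.2% of all 12 h peaks. The 6-fold minimum over the same library limits how many untreated tags a weak site can have.

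Peaks with the most untreated tags included several 12 h only sites. Of the 18 peaks of the 12 h list with over 30 raw untreated tags, 5 were 12 h only (27.8%, Wilson 95% interval 12.5 to 50.9), an interval that takes in the 15.5% of the whole list. These were the sites near St6galnac1 (62 and 34 raw tags), in Oxr1 (37), near Myc (35) and in Dchs2 (31). All 5 were among the 10 highest scoring 12 h only sites. Their high place is in part set by the 6-fold minimum, which required 23.5 to 47.0 normalised tags at these sites. Of all 12 h only sites, 90% held 21.64 normalised tags or fewer. Between 21 and 30 untreated tags the share was 9.13%, and in each lower bin it was between 14.3% and 16.2%.

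Not being listed at 1 h is not the same as having no signal at 1 h, since tag counts of the 1 h library in these windows were not among the values used here. To reach a fold of 6 over the untreated tags in its window, the 1 h library would have needed a median of 8.33 normalised tags at a 12 h only site, with a range of 1.52 to 47.0. No listed 1 h peak held fewer than 7.51 normalised tags, so at the lower end of that range the fold alone would not give a listing. A listing at 1 h also required the lowest score and a fold of 6 over the local 10 kb. The local fold removed 1189 of the 9382 candidate peaks at 1 h. A site beside a strong 1 h peak could therefore hold more 1 h tags than these and still not be listed. The 12 h library exceeded the level of the fold over untreated by a median factor of 1.41 (1.37 to 1.47). That factor restates the fold over the untreated library, which the listing rule kept at 6 or more, so it says nothing about 1 h. In untreated cells the same windows held a median of 1.39 normalised tags.

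The distance to the nearest 1 h peak varied from 3 bp to over 1 Mb, the second at 8 sites. The median was 39.8 kb (31.8 to 49.1), with quartiles of 10.6 and 147.9 kb. It depended on the rule, at 22.8 kb when sharing required centres within 100 bp and 155 kb with the 1 h list limited to as many leading peaks as the 12 h list. Both shifts are in part built in, since the first rule adds sites that overlap a 1 h peak and the second removes 1 h peaks. Shared sites had a median of 45.2 kb (40.8 to 49.8) to the nearest 1 h peak they did not overlap. Within 25 kb of a 1 h peak lay 180 of the 447 sites (40.3%, 35.8 to 44.9), and 37.1% (35.2 to 39.0) of the shared sites had another 1 h peak as near. The intervals overlap at this distance and at 100 kb, where the shares were 67.3% and 66.1%.

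At short range the 2 sets stood apart. Within 0.5 kb of a 1 h peak lay 27 of the 12 h only sites (6.04%, 4.18 to 8.65), against 10 of the shared sites (0.411%, 0.223 to 0.754). Within 5 kb the counts were 72 (16.1%, 13.0 to 19.8) and 180 (7.39%, 6.42 to 8.50). In the lower scoring part the shares within 5 kb were 9.76% (7.13 to 13.2) of 12 h only sites and 5.95% (4.69 to 7.52) of shared sites, with overlapping intervals. A shared site has its own 1 h peak, and the 1 h caller kept peaks at least 564 bp apart, so a second 1 h peak could rarely be closer than that. The short range difference is in part set by this spacing.

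**Figure D2:**
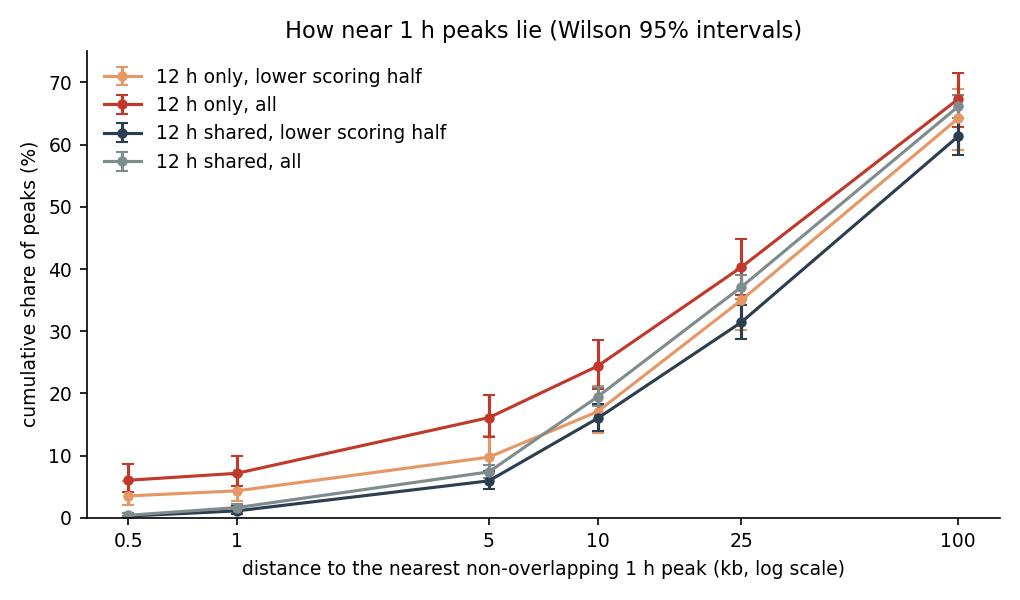
The horizontal axis gives the distance to the nearest 1 h peak that a site does not overlap (kb, log scale), the vertical axis the cumulative share of sites within it, with Wilson 95% intervals, for 12 h only and shared sites, in full and for scores at or below the 12 h median. Within 5 kb the share is 16.1% for 12 h only and 7.39% for shared sites, and by 100 kb the full sets are at 67.3% and 66.1%.

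Sites near a 1 h peak held more tags than the others. The 24 with a gap of 300 bp or less had a median of 18.5 normalised tags and a fold over untreated of 11.74, and the 48 with a gap over 300 bp and up to 5 kb had 17.6 and 10.435. The 108 sites 5 to 25 kb away had a median of 11.85 normalised tags, the 121 sites 25 to 100 kb away 12.6, and the 146 sites beyond 100 kb 11.55. Median untreated tags over the same bins were 13, 12.5, 12, 11 and 11 raw tags. These medians moved by less than those of the 12 h tags. The median fold over the local region in these bins was 9.36, 7.195, 7.65, 7.66 and 7.895. The listing rule set a minimum for that fold, so a site among many other 12 h tags needed more tags to be listed. Whether this rule raised the tags of listed sites near a 1 h peak was not tested. The nearest 1 h peak was itself found again at 12 h for 196 of the 447 sites (43.8%), but for 1 of the 24 at 300 bp or less.

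For 23 of the 12 h only sites the centre was within 564 bp of the centre of a 1 h peak, at 295 to 557 bp. The 1 h neighbour had no 12 h peak over it in 22 of the 23, which is in part set by the 12 h caller, since it kept peaks 604 bp apart. The 12 h peak was within 2-fold of its 1 h neighbour in 16 pairs, higher in 8 and lower in 15, and the median log2 ratio of 12 h over 1 h neighbour was -0.46. The focus ratio, the caller's fraction of tags placed as around a single point, had a median of 0.7 at these 12 h peaks, against 0.72 at the 1 h neighbours and 0.793 over all 12 h only sites. A focus ratio under 0.7 was found at 11 of the 23, against 21 of the other 424.

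The strongest pair lay 342 kb from Adamts5, a gene of a cartilage aggrecan protease, with 44.5 normalised tags at 12 h (40.4 to 48.9), 44 in the 1 h peak 95 bp away and 16 raw tags in the untreated library. Inside H6pd, whose enzyme makes NADPH in the endoplasmic reticulum for the reactivation of corticosterone by 11β-HSD1, the 12 h only site held 36.4 normalised tags at 12 h. It lay 250 bp from a 1 h peak of 111.6 normalised tags, the only neighbour of the 23 found again at 12 h. At Gmds, a fucose synthesis gene 80.1 kb away, the 12 h site held 28 normalised tags and the 1 h neighbour 15.7. At Ptprj, a receptor phosphatase gene 7.26 kb away, the values were 18.9 and 59.4 normalised tags.

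**Figure D3:**
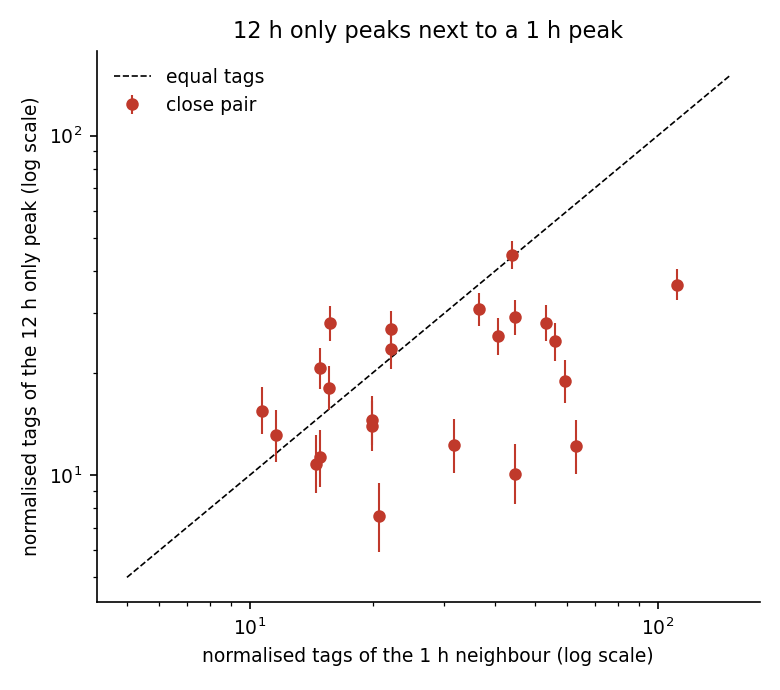
Each point is 1 of the 23 pairs, with normalised tags of the 1 h neighbour on the horizontal axis and of the 12 h only peak on the vertical axis (both log scales), exact Poisson 95% intervals for the 12 h value and a dashed line at equal tags. There are 8 points above the line and 15 below it, and the point farthest right is the H6pd pair at 111.6 and 36.4 normalised tags.

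The edge of the rule ran through such pairs. Just outside overlap were the Ptprj site with a gap of 3 bp, the Fbxl17 site with 6 bp, the Gipc2 site with 10 bp and the Grhpr site with 18 bp, with 18.9, 20.7, 14 and 14.5 normalised tags. Just inside the shared set were the sites near Clvs1, which overlapped a 1 h peak by 11 bp, and near Pgrmc2 and Pnlip, which did so by 45 bp each, with 13.3, 29.1 and 20.1 normalised tags. Gaps of 50 bp or less were found at 9 of the 12 h only sites and overlaps of 50 bp or less at 4 shared sites, while the median shared overlap was 273 bp.

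The highest scoring 12 h only site lay 469 bp from St6galnac1, a sialyltransferase gene of mucin-type glycans (chr11:116764405-116764707), with 68.7 normalised tags at 12 h (63.6 to 74.1). It had 62 raw tags in the untreated library, a fold of 8.78 over it and a fold of 28.17 over the local 10 kb. A second 12 h only site (chr11:116759135-116759437) held 33.8 normalised tags and 34 raw untreated tags. No 1 h peak lay within 225 kb of either, and both were well above the 11.6 raw untreated tags that an average window held. A fold of 6 over these untreated tags would have needed 47.0 and 25.8 normalised tags at 1 h, so a lower 1 h signal would not be listed.

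Inside Tns1, the gene of the focal adhesion protein tensin 1, a site of 64.2 normalised tags (59.3 to 69.5) had 10 raw untreated tags and a fold of 50.89 over them. Its fold over the local region was 6.69, close to the minimum of 6. The nearest shared site, 2.53 kb away, held 185.8 normalised tags at 12 h and 341.6 at 1 h. The site in Oxr1, an oxidation resistance gene, was placed likewise. It held 53.1 normalised tags at 12 h and 37 raw untreated tags, with a local fold of 7.44, and lay 1.89 kb from a peak of 76.3 normalised tags at 12 h and 113.1 at 1 h.

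The site in Dchs2, a large cadherin gene, had 44.5 normalised tags and 31 raw untreated tags, and no 1 h peak within 25 kb. A 1 h listing there would have needed at least 23.5 normalised tags. A site 669 kb from Myc, the nearest protein-coding gene, held 39.3 normalised tags and 35 raw untreated tags, 3.42 kb from a 1 h peak of 26.8. Sites 57.9 kb from Met, the hepatocyte growth factor receptor gene, and inside Nox4, a hydrogen peroxide producing oxidase gene, held 35 and 32.8 normalised tags, with 1 h peaks 7.19 and 3.16 kb away. Of the leading 10 sites, 4 had fewer than 20 raw untreated tags, those at Tns1, Adamts5, H6pd and Met.

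**Figure D4:**
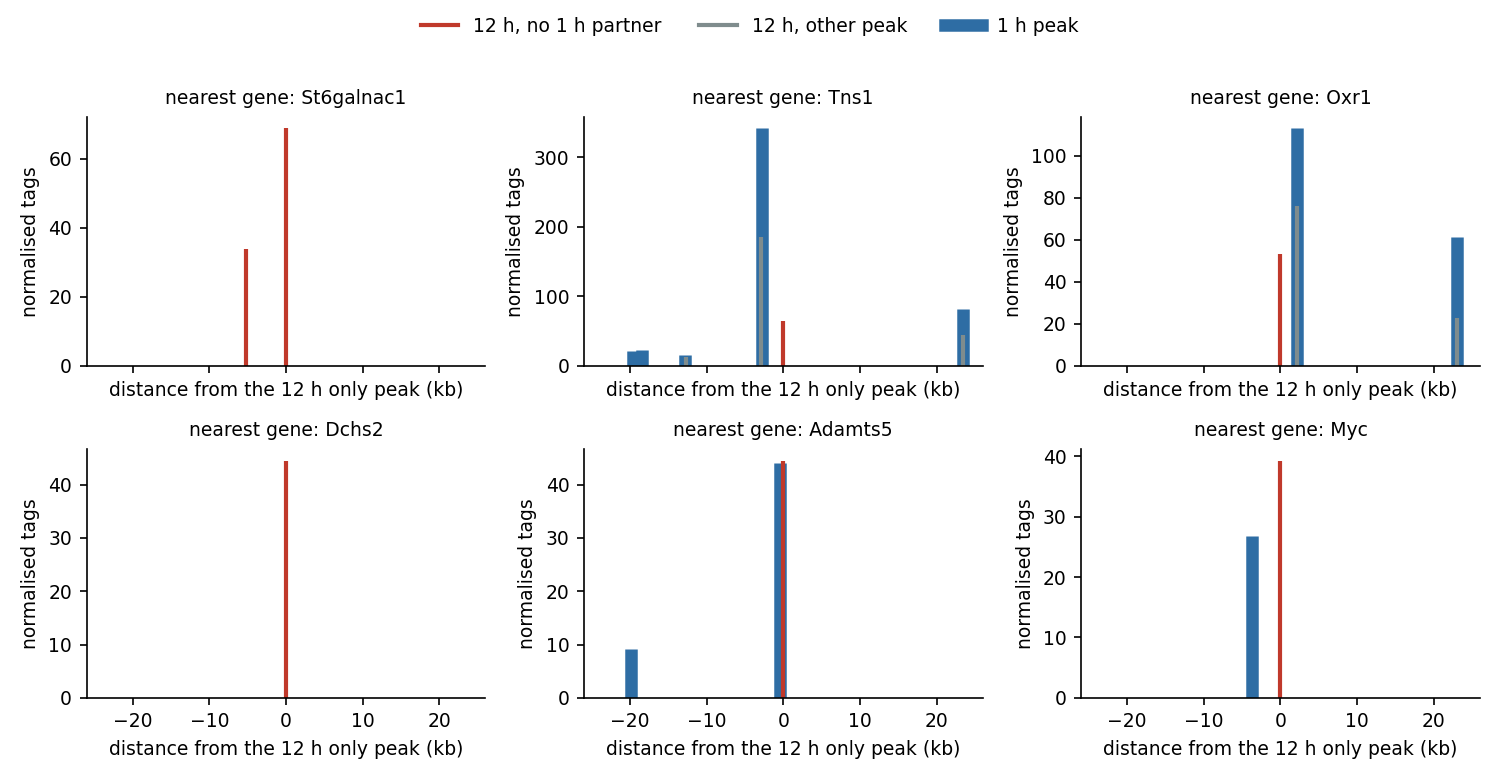
Normalised tags (vertical, scale differs by panel) of every listed peak within 25 kb of each of the 6 highest scoring 12 h only sites, by distance from the site's centre (horizontal, kb); thin lines are 12 h peaks and thick lines 1 h peaks. The St6galnac1 and Dchs2 sites have no 1 h peak in view, while the Tns1 and Oxr1 sites stand beside stronger peaks of both lists.

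The highest folds over the untreated library stood over 2 to 10 raw untreated tags, and the Tns1 site with 10 was the second highest. A site 31.3 kb from Dnajc11, a mitochondrial membrane organisation gene, had the highest fold, 57.73, with 29.2 normalised tags over 4 raw untreated tags, and a 1 h peak 112 bp away. Sites 37.5 kb from Glrx3 and inside Slc35f4 reached 40.11 and 36.87 with 10.1 and 9.31 normalised tags, over 2 raw untreated tags each. Of the 5 sites farthest from any 1 h peak, 3 are named here, and their tags lay on both sides of the median of 12.3. They were 30.1 kb from Slc35f5 (1809 kb from a 1 h peak; 9.41 normalised tags), inside Pcdh10, a protocadherin gene (1487 kb; 14.9), and 3.63 kb from Pnp2, a nucleoside phosphorylase gene (1474 kb; 12.9).

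Shared sites that neighboured a 12 h only site were set side by side between times. They are by definition listed at both, so the ratios hold only for sites past the caller's minimums in each library. The nearest shared site within 25 kb of a 12 h only site (104 sites) had a median log2 ratio of 12 h over 1 h of -0.28 (-0.56 to -0.12), against -0.50 (-0.54 to -0.47) at the other 2332. Lower at 12 h were 71 of the 104 (68.3%, 58.8 to 76.4), against 77.6% (75.9 to 79.3) of the others. Within 5 kb there were 21 such sites, with a median of -0.48, and 16 were lower at 12 h. Within 100 kb there were 195, with a median of -0.30 (-0.45 to -0.19). At 25 kb both pairs of intervals overlap, and at 5 kb the other 2415 shared sites had a median of -0.49. At 100 kb the other 2241 had -0.51 (-0.54 to -0.47), which does not overlap. These values rest on 1 library per time and nothing was tested.

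In position relative to genes, the share of 12 h only sites far from genes had an interval that overlapped that of shared sites and not that of 1 h only sites. Inside a protein-coding gene lay 174 of the 447 (38.9%, 34.5 to 43.5), against 40.8% of shared sites (38.9 to 42.8) and 44.5% of 1 h only sites (42.8 to 46.2). More than 100 kb from any protein-coding gene lay 99 (22.1%, 18.5 to 26.2), against 17.4% (16.0 to 19.0) and 16.0% (14.7 to 17.3). Within 10 kb of an annotated start lay 44 of the 429 sites with a start table (10.3%, 7.73 to 13.5), against 14.4% (13.1 to 15.9) and 15.3% (14.1 to 16.6). In the lower scoring part the shares within 10 kb of a start were 10.8% of 12 h only sites (7.97 to 14.5) and 14.8% of shared sites (12.8 to 17.1), with overlapping intervals. Neighbouring sites can share a gene, so these binomial intervals are too narrow if sites are not independent.

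**Figure D5:**
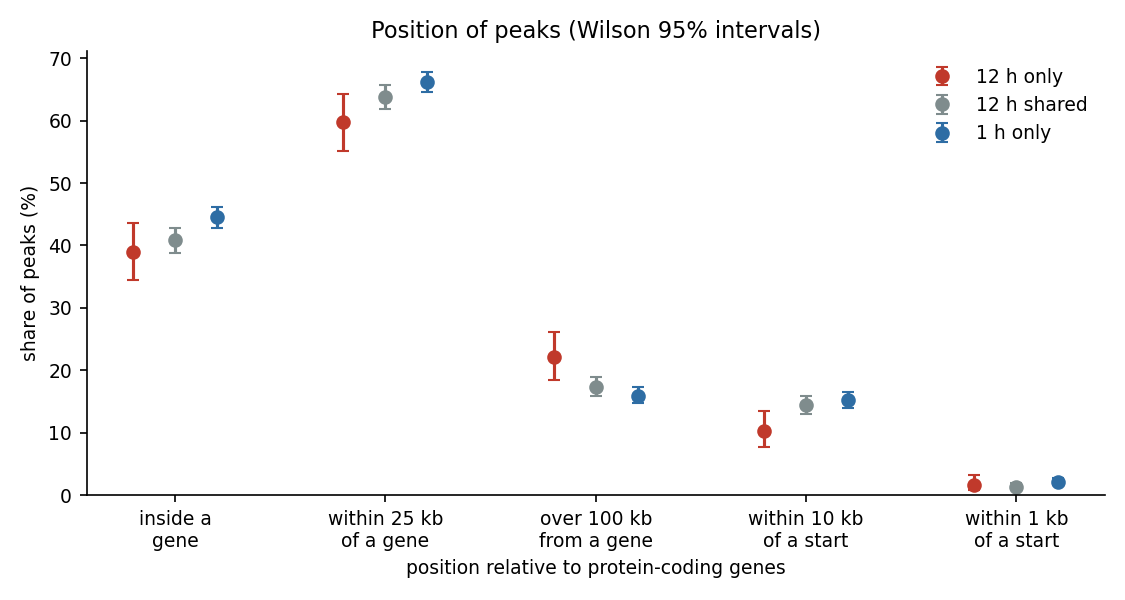
Shares of sites (vertical, percent, Wilson 95% intervals) by position relative to protein-coding genes (horizontal) for 12 h only, shared 12 h and 1 h only sites. The 12 h only share is 22.1% beyond 100 kb from a gene and 10.3% within 10 kb of a start, against 17.4% and 14.4% for shared sites.

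Within 1 kb of a start lay 7 of the 429 sites (1.63%), against 1.39% of shared sites. Besides Folh1 these were S100a3, a calcium-binding protein gene (19.6 normalised tags), Grhpr, a glyoxylate reductase gene (14.5), Cacul1 (14.3), Insc, a spindle orientation gene (13.5), Akt2, a kinase gene of insulin signalling (11.6), and Klhl33 (10.2). The Akt2 site lay 335 kb and the Klhl33 site 1402 kb from the nearest 1 h peak. The S100a3 and Grhpr sites had one within 370 bp and 18 bp.

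Of 21887 protein-coding genes, 337 (1.54%) had a 12 h only site in their span or within 25 kb, and 16.9% had a 1 h site as near. Of those 337, 206 (61.1%) also had a 1 h site in that range, and 131 (38.9%) had none. The site counts of gene groups below are given beside that 1.54%, and no difference from it was tested. A binding site near a gene does not say that the gene responded.

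Among genes of the receptor's own pathway, 2 of 22 had a 12 h only site, H6pd and Hsd11b2, the gene of the enzyme that inactivates corticosterone. The Hsd11b2 site lay 22.8 kb from its span, nearer to Atp6v0d1, and held 16.5 normalised tags at 12 h over 17 raw untreated tags, 148 kb from a 1 h peak. Of 28 established glucocorticoid target genes 1 had a 12 h only site, Zbtb16, a zinc finger transcription factor gene, while 21 of the 28 had a 1 h site. The Zbtb16 site held 17.6 normalised tags over 5 raw untreated tags at a fold of 27.87, 11.5 kb from a 1 h peak, in a gene with 8 sites at 1 h.

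Among circadian clock genes 1 of 22 had a 12 h only site, Npas2, whose protein pairs with BMAL1. It held 2 such sites, of 20.8 and 12.4 normalised tags over 17 and 11 raw untreated tags, 70.5 and 62.2 kb from the nearest 1 h peak. Of 17 Krüppel-like factor genes, Klf15, a glucocorticoid-induced metabolic regulator, had a site of 12 normalised tags inside it, 586 bp from a 1 h peak. Both genes also had 1 h sites in range.

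Feedback inhibitors of growth signalling had 2 of 24 members near a 12 h only site. They were Rasa3, a Ras inhibitor gene (12 normalised tags), and Spred2, a Ras-ERK inhibitor gene (10.8 normalised tags, and no 1 h site in range). The Spred2 site lay 19.4 kb from its span, nearer to Actr2. Of 29 genes of insulin, PI3K and mTOR signalling only Akt2 had a 12 h only site. Of 25 inflammatory and NF-κB genes only Tnip1, an NF-κB inhibitor gene, had one, of 9.92 normalised tags, 13.2 kb from its span and nearer to Gpx3. None of 25 mammary epithelial genes, 16 AP-1 and MAF factor genes, 34 genes of TGF-β and BMP signalling and 40 Wnt pathway genes had one.

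In larger gene families the counts were 10 of 389 solute carrier genes, 4 of 93 potassium channel genes, 4 of 98 cadherin genes, 3 of 44 collagen genes and 3 of 38 protein tyrosine phosphatase genes. The strongest site in the phosphatase group lay inside Ptprk, which acts at cell contacts, with 27.1 normalised tags over 8 raw untreated tags and no 1 h peak within 261 kb. Inside Col24a1, a fibrillar collagen gene, the stronger of 2 sites held 22.5 normalised tags, and inside Kcnab1, a potassium channel subunit gene, a site held 22.8. The Slc7a2 site, in a cationic amino acid transporter gene with no 1 h site in range, held 13.4 normalised tags over 6 raw untreated tags. Zinc finger genes named Zfp had 4 of 397 near a site, of which 3 shared 1 site, a share of 1.01% beside the 1.54% of all genes. Glycosyltransferases of the sialyl and galactosaminyl families had 2 of 39, St6galnac1 and Galnt10, the second with 18.7 normalised tags.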

How the data were processed

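The members, gene lists and naming rule were chosen with earlier results of these data known. Per the submitters' processing notes, the authors used bcl2fastq 2.17, Bowtie2 2.2.6 and HOMER (version not given in the sources used here) on mm10. Per the file headers, findPeaks ran per library in factor mode (false discovery rate 0.001, lowest score 75, lowest fold 6 over the control and over the local 10 kb, highest Poisson p-value 0.0001). That left 2883 of 6441 candidate peaks at 12 h and 5638 of 9382 at 1 h. Control tags are the deposited signal of the untreated library, unscaled. The normalised tag signal, score, fold (a ratio), focus ratio (a fraction) and p-value were deposited by the authors; the p-value was not used. The deposited tag signal had been scaled to the untreated library, per the file headers, and undoing that returned whole tags at 100% of the peaks, within 0.1.

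Overlap, distances, medians with order-statistic intervals, Wilson and exact Poisson 95% intervals were computed with Python 3.11.15, pandas 2.3.3 and scipy 1.17.1, and the code was tested on simulated peaks. Gene spans and windows came from RefSeq GRCm38.p6. Sites are named by the nearest protein-coding gene, or in the gene lists by the listed gene within 25 kb. The names cover the 10 highest scores, the 5 highest folds and untreated counts, the 5 farthest from and nearest to a 1 h peak, sites within 1 kb of a start and up to 4 genes per list; the sites clear of all minimums, the lowest tags and the close pairs were named after their values were seen. Sites on chromosome 18 were counted but are not named, a few other items are not reported here, and starts there were not used. The labels of the input sample give corticosterone, but a file header calls it untreated; that sample was not analysed here. Other overlap rules, caller minimums, list lengths and gene windows were tried.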

Additional observations from a re-analysis of the deposited data

How the results depend on the processing

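No paired analysis was possible because each condition had 1 library, so no library could be left out either. The number of 12 h only sites was 447 as defined, 477 when 0.5 of the 12 h peak had to overlap, 420 when a 1 h peak within 0.5 kb counted as shared and 546 when centres had to lie within 100 bp. That last rule adds sites that overlap a 1 h peak, and it moved the median distance to a 1 h peak to 22.8 kb. Among 12 h peaks at 1.5 times or more each minimum 62 sites were 12 h only, with a median of 17.65 normalised tags, folds of 13.39 over untreated and 11.36 over the local region, 33.9% inside a gene and 51.6% within 25 kb of one. With the 1 h list limited to as many leading peaks as the 12 h list, 1052 sites were 12 h only, with median folds of 9.49 and 8.18 and a median distance of 155 kb. The share near a gene was 50.1% within 10 kb and 77.9% within 100 kb, and 50.1% lay inside a gene when all annotated genes counted. The median of untreated tags stayed between 11 and 11.5 raw tags under every overlap and list rule. Tag depth limits the weakest sites, where 70 raw tags gave an interval of 5.58 to 9.05 normalised tags. Without 1 h tag counts in these windows a change between times cannot be told apart from a listing difference.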

Other observations

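Linked to each other at gaps of 25 kb or less, the 12 h only sites formed 433 groups. Of these, 419 were single sites, 14 held 2 sites and none held more. Peaks of other sets were not linked and have no such count here, so the many single sites are in part set by the size of the set. The gap to the nearest other 12 h peak of any kind had a median of 80.0 kb and a lower quartile of 22.6 kb. Among the pairs were those in or near Npas2, Pax3, Cited2, Vmp1, St6galnac1, Gpc6, Celf2, Ptprf, Glrx3, Zfp330 and Cngb1, and between E2f6 and Rock2 and between Rcl1 and Jak2. Inside Gpc6, a glypican gene of 1055 kb, the pair held 14.2 and 12.1 normalised tags over 17 and 12 raw untreated tags, and the gene had no 1 h peak at all in its span. Celf2 was the only gene with 3 sites inside its span, which also held 6 peaks at 1 h. Genes holding a 12 h only site had a median span of 146.8 kb (161 genes). It was 106 kb for genes holding a shared site (783) and 104 kb for genes holding a 1 h only site (1121). These sets differ in size, so their medians are not directly comparable. For all protein-coding genes it was 17.2 kb, and long genes hold more of any set by their length. By chromosome the 12 h only share of the 12 h list ran from 12.1% on chromosome 3 to 20.9% on chromosome 18, with overlapping intervals.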
